A study of Cricetulus griseus with 20 samples.

Results

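The hypoxic induction step is the change in RNA levels of Chinese hamster preadipocytes between confluence (D0) and the first day of adipogenic induction (D1), measured in cells held at low oxygen at both timepoints. It was taken as the Hypoxia D1 libraries against the Hypoxia D0 libraries, 2 of each, so 4 of the 20 libraries of the series carry it. The same step in room oxygen, Normoxia D0 to Normoxia D1, has 4 libraries of its own and shares none with the hypoxic step, so the pair of steps shows which induction changes occurred despite hypoxia. The cells were primary preadipocytes from the inguinal white adipose tissue (iWAT) of 6-week-old female hamsters (Cricetulus griseus), and the tissue of all animals was pooled before culture. The whole series sampled D0, D1, D3, D7 and D11 at both oxygen levels, with 2 libraries in each of its 10 groups.

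Hypoxia D0 cells were confluent, uninduced cells in growth medium that spent the last 24 h before harvest in 1% O2. Hypoxia D1 cells were kept in conventional incubator air up to D0 and then received 1% O2 and the induction medium, with dexamethasone, insulin and IBMX, over the same 24 h. Normoxia D0 and Normoxia D1 cells had the same media at the oxygen of a conventional incubator. The step therefore compares separate cultures that each had 24 h of hypoxia, not a culture followed through continuous hypoxia, and in the D1 cultures the start of hypoxia and the start of induction coincided. The 2 libraries of each group are biological replicates in the words of the study. Tissue was pooled, so they are not separate animals, and how the cultures were split is not given in the sources used here. Each p-value therefore reflects only the spread between libraries within groups, shared over all 10 groups of the series, and not the spread between animals.

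Each component of the induction medium acts through its own route. Dexamethasone activates the glucocorticoid receptor, a transcription factor, while IBMX blocks phosphodiesterases and so raises cAMP, protein kinase A activity and the activity of the transcription factor CREB, and insulin signals through phosphatidylinositol 3-kinase and Akt. In rodent preadipocytes these signals first raise the transcription factors C/EBPβ and C/EBPδ, which later switch on Pparg and Cebpa, the factors that drive the mature fat cell program, and confluent cells divide again before they differentiate. Low oxygen stabilizes hypoxia-inducible factors (HIFs), which raise genes of glycolysis, oxygen-saving metabolism and blood vessel growth.

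The deposited values are TPM, a share of the library's transcripts corrected for transcript length, and read depth per gene is unknown. Changes are given as differences of log2(TPM + 1), D1 minus D0, relative to the median change of all mRNAs in the same step, which was -0.244 in the hypoxic and -0.194 in the normoxic step. The listed mRNAs and lncRNAs together held 36.3% to 39.0% of all TPM in the Hypoxia D0 libraries and 29.2% to 33.4% in the Hypoxia D1 libraries, against 37.8% to 38.7% and 34.0% to 34.4% in normoxia. Replicate libraries correlated with Pearson's r of 0.9958 at Hypoxia D0 and 0.9963 at Hypoxia D1 over mRNAs, and Hypoxia D1 replicate 1 had the lowest listed share of TPM. Of the defining preadipocyte and stromal markers, 8 of 15 were found (Pdgfra, Zfp521, Dcn, Cd44, Ddr2, Cxcl12, Twist2 and Tbx15), none at 0 in any D0 or D1 library, with a summed level of 95.6 to 98.5 TPM at Hypoxia D0 and 80.2 to 88.5 TPM at Hypoxia D1. Of 9 adipocyte markers 5 were found (Fabp4, Pparg, Lpl, Cd36 and Lipe), summing to 179.0 to 180.2 TPM at Hypoxia D0 and 81.5 to 97.6 TPM at Hypoxia D1. These sums, and those of other cell types below, are TPM not set relative to the median change. Relative to it, 3 of the 8 stromal markers rose and 1 fell in the hypoxic step at an adjusted p under 0.05 (limma). Of the 5 adipocyte markers, 1 rose and 2 fell. In these bulk libraries, fewer cells of a type and less RNA per cell cannot be told apart.

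Of 10318 listed mRNAs, 233 (2.26%) were higher and 144 (1.4%) lower at D1 in hypoxia, with a relative log2 change beyond 1 and an adjusted p under 0.05 from limma with Benjamini-Hochberg adjustment. Without subtracting the median the split turned over, to 131 higher and 342 lower, so directions below are relative to the typical mRNA. Of these 377 mRNAs, 376 had no overlap between the 2 Hypoxia D0 and the 2 Hypoxia D1 libraries. The calls were made on these same libraries and the share without overlap among all mRNAs is not given, so this count adds no support. At any size, 18.4% of mRNAs rose and 18.7% fell. The normoxic step called 204 mRNAs higher (1.98%) and 112 lower (1.09%), with 16.7% rising and 14.8% falling at any size. A gene symbol was at hand for 3858 mRNAs, and among these 22.2% rose and 19.9% fell in the hypoxic step and 20% rose and 16.3% fell in the normoxic step. These shares are the background for the gene groups described next.

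**Figure D1:**
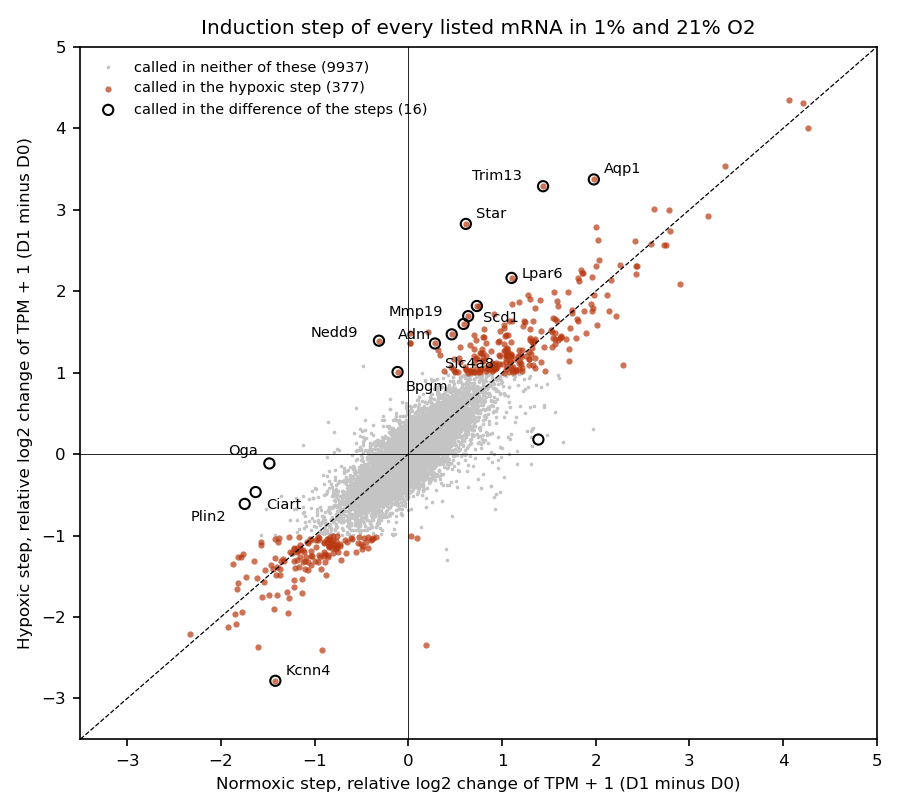
Relative log2 change of TPM + 1 in the normoxic step (horizontal axis) and in the hypoxic step (vertical axis), with 1 point for each of 10318 mRNAs. Red points are the 377 mRNAs called in the hypoxic step, circles the 16 called in the difference of the steps, and the dashed line marks equal change, with 231 of the 233 rises and 141 of the 144 falls having the same sign in normoxia.

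Among called mRNAs with a gene symbol, at least 10 TPM in the higher group and no overlap of the libraries, the 12 largest rises included targets of dexamethasone and cAMP, secreted proteins and membrane proteins. Rgs2, a brake on G protein signaling that cAMP induces, went from 0.66 and 0.781 TPM in the Hypoxia D0 libraries to 26.6 and 30.9 TPM in the Hypoxia D1 libraries. Its relative log2 change was 4.35 ± 0.14 (SE, n = 2 libraries a group, adjusted p = 4.96e-14), beside 4.07 in normoxia. Igfbp4, a secreted binding protein of insulin-like growth factors, was among the most abundant of these, at 30.6 and 35.8 TPM before and 546 and 599 TPM after induction, a change of 4.31 ± 0.16 (adjusted p = 3.63e-13) beside 4.21 in normoxia. The levels at D0 and D1 lay far apart for both genes, and for Igfbp4 the D1 levels of hypoxia and normoxia overlapped.

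Cxcl3, a chemokine that draws neutrophils, had 2.64 and 3.02 TPM at Hypoxia D0 and 40.9 and 63.6 TPM at Hypoxia D1, a rise of 4.01 ± 0.22 (adjusted p = 5.71e-11) beside 4.27 in normoxia. Dclk1, a microtubule-associated kinase, rose from 1.89 and 1.76 to 25.2 and 28.1 TPM, by 3.53, beside 3.38 in normoxia. Vcan, the large matrix proteoglycan versican, rose from 2.65 and 2.37 to 19.2 and 23.8 TPM, by 2.92, beside 3.20 in normoxia. These 3 genes rose at both oxygen levels, with differences between the steps of -0.26, 0.15 and -0.28 whose 95% intervals were -0.89 to 0.38, -0.34 to 0.64 and -0.66 to 0.10.

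Other leading rises were larger in hypoxia on the log2(TPM + 1) scale, where the added 1 narrows changes from levels under 1 TPM. Aqp1, a water channel, went from 0.29 and 0.703 to 12.1 and 11.9 TPM in hypoxia and from 0.0838 and 0.213 to 3.39 and 2.56 TPM in normoxia. Its relative change was 3.37 ± 0.17 (adjusted p = 2.1e-11) beside 1.98. Aqp1 started under 1 TPM at both oxygen levels, so the size of its difference rests partly on the added 1. Trim13, a ubiquitin ligase of the endoplasmic reticulum membrane, went from 5.98 and 5.15 to 46.8 and 60.3 TPM in hypoxia and from 3.27 and 3.56 to 10.8 and 8.27 TPM in normoxia. Its change was 3.29 ± 0.16 (adjusted p = 2.01e-11) beside 1.44. The difference between the steps passed its own test for Aqp1 and Trim13, as given with the other such genes below. Rnf152, a lysosomal ubiquitin ligase, rose from 1.09 and 1.39 to 13.4 and 15.0 TPM, by 3.01 beside 2.62, and Fmo4, a flavin monooxygenase, from 2.19 and 3.31 to 20.2 and 21.1 TPM, by 2.79 beside 2.00. For Rnf152 and Fmo4 the difference did not pass (adjusted p = 0.686 and 0.352). Rnf152 went from 0.273 and 0.648 to 7.28 and 6.32 TPM in normoxia, so its ratio of mean TPM was not larger in hypoxia.

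Under the same conditions, the deepest fall was in Kcnn4, a calcium-activated potassium channel, from 31.2 and 26.6 to 2.13 and 3.28 TPM in hypoxia and from 18.0 and 18.7 to 5.49 and 5.19 TPM in normoxia. The relative changes were -2.78 ± 0.16 (adjusted p = 1.73e-10) and -1.42. Il1rl1, the receptor of interleukin-33, fell from 9.12 and 18.4 to 1.07 and 1.54 TPM, with a change of -2.37 ± 0.25 (adjusted p = 5.03e-07) beside -1.61. Its Hypoxia D0 libraries were apart from each other, and both stood above the D1 libraries. Dbp, a clock output transcription factor, fell from 12.5 and 13.9 to 1.41 and 1.79 TPM in hypoxia and from 13.4 and 11.2 to 1.44 and 1.20 TPM in normoxia. The changes were -2.21 ± 0.12 (adjusted p = 6.15e-11) and -2.33, and the D1 levels of Dbp overlapped between the oxygen levels.

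Mmp12, the macrophage metalloelastase, fell from 27.3 and 22.6 to 4.18 and 4.05 TPM in hypoxia, with a change of -2.09 beside -1.84 in normoxia, where its level was lower at both timepoints. Mlkl, the executioner of necroptosis, fell from 71.3 and 65.0 to 14.7 and 17.6 TPM, Tnfrsf12a, the receptor of the cytokine TWEAK, from 375 and 338 to 94.7 and 112 TPM, and Irf1, an interferon-induced transcription factor, from 14.8 and 14.8 to 3.27 and 4.03 TPM. Their relative changes were -1.77, -1.54 and -1.52, beside -1.27, -1.14 and -1.61 in normoxia. The remaining leading falls had changes of -1.73 for Slc27a6, a fatty acid transporter, -1.70 for Tfpi, an inhibitor of blood clotting, -1.63 for Tyro3, a receptor kinase, -1.58 for G6pc3, a glucose-6-phosphatase, and -1.48 for Hmga1, a chromatin protein. All 5 also fell in normoxia, by relative log2 changes between -1.81 and -0.88.

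**Figure D2:**
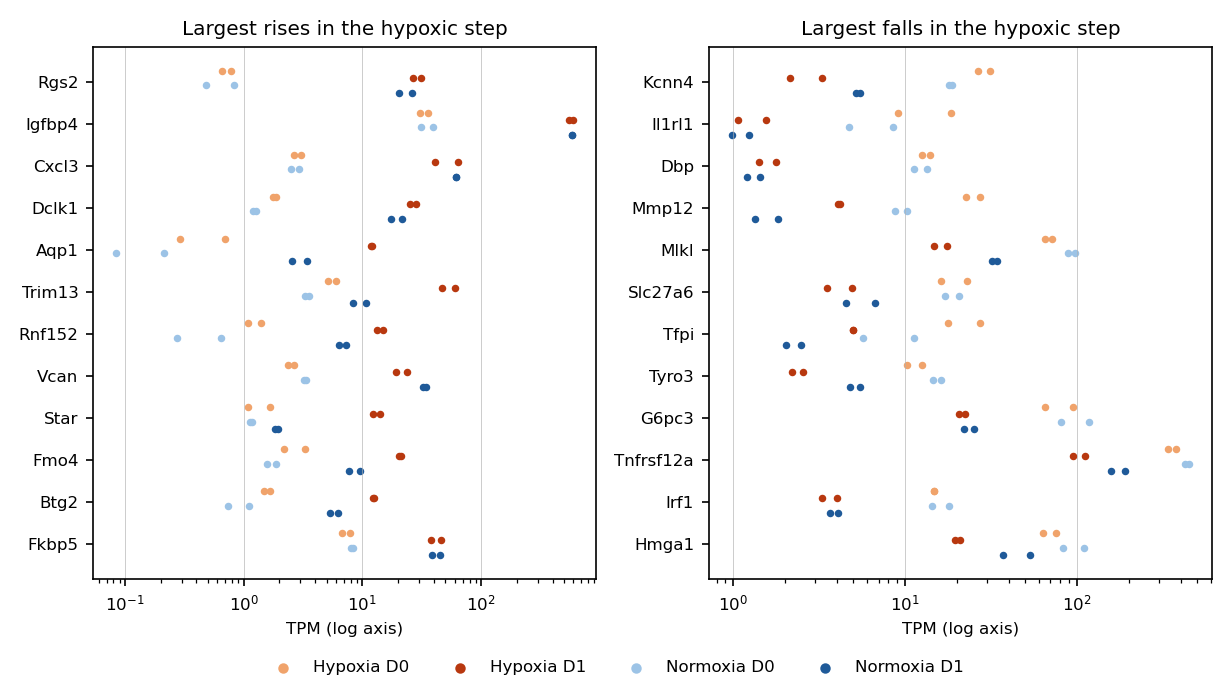
TPM on a log axis in each of the 4 hypoxic and 4 normoxic libraries of D0 and D1 for the 12 largest rises (left) and the 12 largest falls (right) of the hypoxic step, with 1 point a library. D0 and D1 are apart in hypoxia for every gene drawn because the choice required it. Star, Trim13 and Aqp1 have normoxic D1 levels well below the hypoxic ones.

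Targets of the glucocorticoid receptor mostly rose. Of 33 listed symbols 22 were found, 16 rose, 1 fell and 5 did not pass, with a median relative change of 0.50 beside 0.02 for all mRNAs with a symbol. In normoxia 12 rose and 2 fell with a median of 0.34. Without subtracting the median, 9 of the 22 rose and 2 fell in the hypoxic step. Fkbp5, a chaperone that restrains the receptor and is among its most used readouts, went from 7.90 and 6.68 to 37.9 and 46.3 TPM in hypoxia and from 8.38 and 8.05 to 45.3 and 38.9 TPM in normoxia. The changes were 2.62 ± 0.17 (adjusted p = 6.72e-10) and 2.41, and the D1 libraries of the 2 oxygen levels overlapped. The kinase gene Sgk1 rose by 2.32 (7.91 and 11.1 to 40.5 and 45.1 TPM), beside 2.26 in normoxia. Dusp1, a phosphatase that switches off MAP kinases, rose by 2.31, beside 2.43 in normoxia.

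Mt1, a metallothionein that binds zinc, was the most abundant member, at 832 and 789 TPM before and 2396 and 2956 TPM after induction in hypoxia. Its normoxic levels were 369 and 204 TPM and then 1081 and 1007 TPM, so they were lower at both timepoints. The relative rises were 1.96 and 2.12. Tsc22d3 (GILZ), an anti-inflammatory glucocorticoid target, rose by 0.98, from 17.7 and 16.7 to 27.2 and 31.8 TPM. The list's member that fell was Il1r1, the interleukin-1 receptor, with a change of -0.68, and Klf9, another well-known target, stood at 0.03 and did not pass.

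The cAMP and CREB list moved the same way, with 14 of 23 found members rising, 3 falling and a median of 0.85, beside 13 rising, 4 falling and 0.61 in normoxia. Without the median subtraction the hypoxic counts were 13 and 6, and without Hypoxia D1 replicate 1 a single member fell. Besides Rgs2, its leaders were Pde4d, a phosphodiesterase that degrades cAMP, with 0.326 and 0.327 TPM before and 7.02 and 9.02 TPM after, Star, the cholesterol carrier of steroid-making mitochondria, with 1.08 and 1.66 before and 12.3 and 14.0 TPM after, and Btg2, a brake on proliferation, with 1.47 and 1.65 before and 12.6 and 12.2 TPM after. Their relative rises were 3.0, 2.83 and 2.63. In normoxia Pde4d rose by 2.78 and Btg2 by 2.02, while Star reached only 1.83 and 1.94 TPM, a rise of 0.61. The largest fall of the list was in Pthlh, which encodes parathyroid hormone-related protein, from 5.85 and 4.6 to 1.34 and 1.63 TPM, with a change of -1.07 beside -1.08.

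Transcription factors that promote adipogenesis did not move as a group in either direction. Of 16 found of 27, 5 rose and 4 fell with a median of -0.11, beside 4 rising, 7 falling and a median of -0.04 in normoxia. Without the median subtraction 2 rose and 8 fell, and 3 rose without Hypoxia D0 replicate 1 or without Hypoxia D1 replicate 1. Pparg went from 80.8 and 87.3 TPM at Hypoxia D0 to 37.4 and 42.4 TPM at Hypoxia D1, with a change of -0.81 ± 0.15 (adjusted p = 0.000239). In normoxia it went from 66.2 and 65.8 to 27.2 and 22.6 TPM, with a change of -1.18. Pparg thus fell on the first day at both oxygen levels, and the difference of 0.37 between the steps did not pass (adjusted p = 0.668). The early factor Cebpd rose by 0.72, from 0.894 and 1.04 to 1.62 and 1.87 TPM, beside 1.04 in normoxia. Nfib, a nuclear factor that supports Pparg expression in mouse cells, rose by 0.61, and Nr3c1, the glucocorticoid receptor itself, fell by 0.61 on the log2 scale. Plin2, the coat protein of lipid droplets that the list carries as an early adipogenic gene, is described with the genes that differed between the steps.

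Many regulators that restrain adipogenesis rose. Of 22 found of 34, 14 rose and 2 fell with a median of 0.45, beside 10 rising, 2 falling and 0.25 in normoxia, and 9 rose and 2 fell without the median subtraction. The Id genes encode inhibitors of helix-loop-helix transcription factors. Id1 went from 16.5 and 22.7 to 54.2 and 55.3 TPM, a rise of 1.70 beside 2.22 in normoxia. Id2 rose by 1.63, from 18.5 and 22.4 to 49.9 and 60.6 TPM, and Id3 by 1.37, from 52.8 and 61.8 to 131 and 121 TPM. The homeobox gene Meis2 rose by 1.38 and the repressor gene Twist2 by 1.36. Ddit3, which encodes CHOP, an inhibitory partner of C/EBP factors, moved the other way, from 181 and 145 to 49.1 and 58.6 TPM, with a change of -1.33 beside -0.96.

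Fat cell enzymes and lipid proteins split. Of 21 adipocyte markers found of 36, 9 rose and 4 fell with a median of 0.24, which became -0.007 without the median subtraction (6 rising and 6 falling), and in normoxia 7 rose and 6 fell. Acly, which makes the acetyl-CoA used for fatty acids, went from 94.3 and 82.3 to 368 and 375 TPM in hypoxia and from 43.3 and 43.5 to 230.2 and 190.1 TPM in normoxia, rises of 2.31 ± 0.13 (adjusted p = 6.15e-11) and 2.44. Scd1, the desaturase that makes monounsaturated fatty acids, rose from 6.77 and 8.78 to 23.5 and 22.2 TPM, by 1.69 beside 0.64 in normoxia. Retsat, a retinol saturase, rose by 1.73 beside 0.92, with a difference that did not pass (adjusted p = 0.174), and Fasn, the fatty acid synthase, by 0.93 beside 1.13. On the other side, Gpd1, which makes the glycerol backbone of triglycerides, fell from 3.48 and 2.43 to 0.534 and 0.671 TPM, with a change of -1.05 beside -1.42, and Fabp4, the fat cell fatty acid carrier, from 91.6 and 86.5 to 37.5 and 47.9 TPM, with a change of -0.81 beside -0.89.

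Most genes of cholesterol synthesis did not pass. Of 18 found of 27, 6 rose and 1 fell with a median of 0.10 in the hypoxic step, which turned to -0.14 without the median subtraction (3 rising and 5 falling), and 2 rose and 2 fell without Hypoxia D0 replicate 2. The isomerase gene Idi1 rose by 0.80 and the reductase gene Hsd17b7 by 0.76, beside 0.77 and 0.44 in normoxia. Insig1, which holds the sterol sensor in the endoplasmic reticulum, had a change of -0.47 beside -0.45. Of 26 found genes of caveolae and insulin signaling, 7 rose and 6 fell with a median of 0.11, which turned to -0.14 without the median subtraction (3 rising and 8 falling), and 4 rose without Hypoxia D0 replicate 1. Ehd2, a protein of the caveolar neck, rose by 0.88 and the glycogen synthase gene Gys1 by 0.82, while Trib3, an Akt-binding stress protein, had a change of -1.16 and the small GTPase gene Rhoq one of -0.73.

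**Figure D3:**
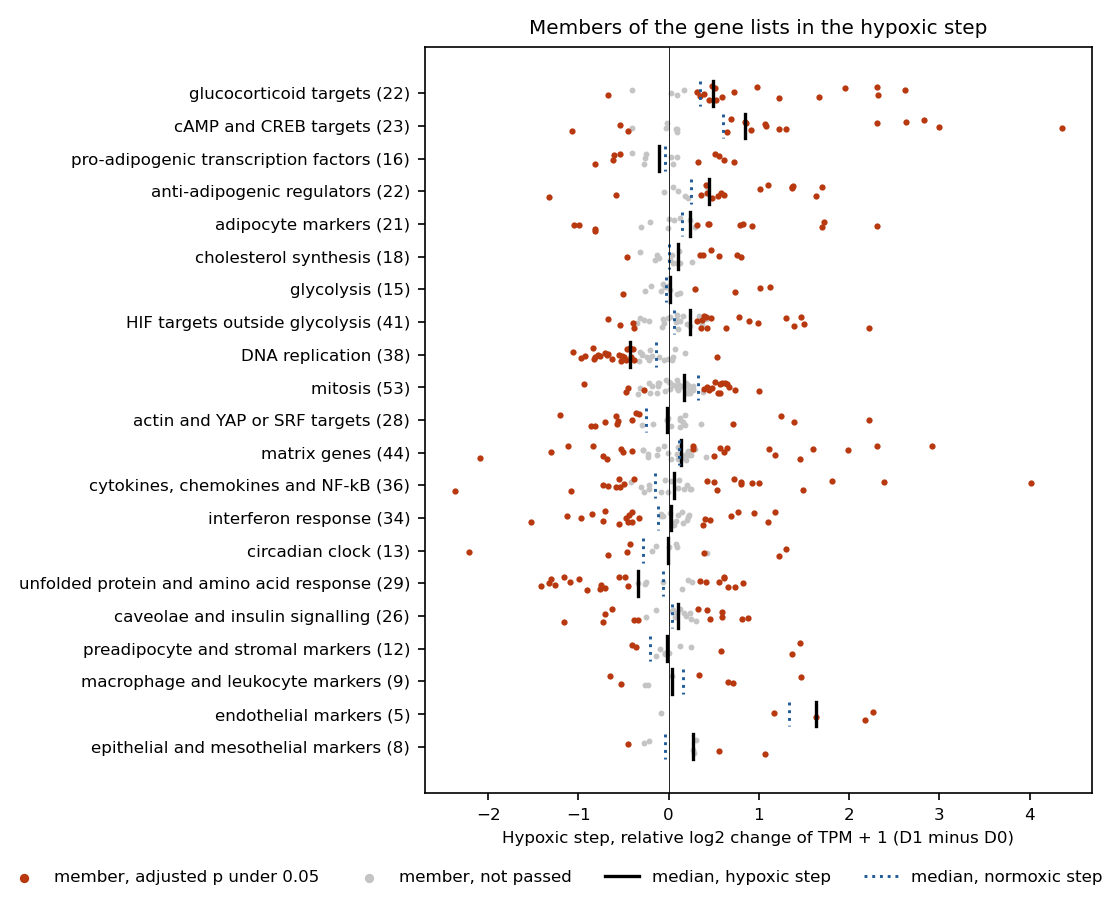
Relative log2 change of TPM + 1 in the hypoxic step for each found member of the 21 gene lists, with the number of members found in brackets. Red points passed an adjusted p of 0.05, grey points did not, the black bar is the median in the hypoxic step and the dotted blue bar the median in the normoxic step; the medians of endothelial markers (1.63), cAMP targets (0.85) and glucocorticoid targets (0.50) are the highest and that of DNA replication (-0.43) the lowest.

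Genes of DNA replication fell in the hypoxic step. Of 38 found of 54, 22 fell, 1 rose and 15 did not pass, with a median of -0.43, where 19.9% of all mRNAs with a symbol fell. Leaving out either library of either hypoxic group left 16 to 19 falling, and without the median subtraction 32 fell. Tyms, the thymidylate synthase, went from 109.9 and 84.7 to 35.5 and 41.9 TPM in hypoxia and from 114.7 and 97.5 to 59.7 and 54.9 TPM in normoxia, changes of -1.06 ± 0.14 (adjusted p = 7.46e-06) and -0.68. Dscc1, a subunit of a clamp loader, had a change of -0.97, Gins1, of the replicative helicase, of -0.84, and Pcna, the sliding clamp, of -0.82, with 273 and 240.1 TPM at Hypoxia D0 and 115 and 129.9 TPM at Hypoxia D1. The normoxic changes of these 3 genes were -0.51, -0.80 and -0.51. In normoxia 11 members fell and 4 rose with a median of -0.14, and none of the 38 passed the test of the difference between the steps. The member that rose was Rrm2, the small subunit of ribonucleotide reductase, by 0.54 beside 0.82.

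Genes of mitosis did not move together. Of 53 found of 63, 14 rose, 4 fell and 35 did not pass, with a median of 0.17 that became -0.075 without the median subtraction (8 rising and 13 falling). Leaving out Hypoxia D0 replicate 1 left 7 rising, and 2 fell when any of the 4 hypoxic libraries was left out. Top2a, the topoisomerase of dividing cells, went from 111 and 112 to 173 and 207 TPM, a rise of 1.00 ± 0.15 (adjusted p = 2.68e-05) beside 1.12. Anln, a scaffold of the cleavage furrow, rose by 0.74 and the kinase gene Aurkb by 0.67, while Mybl2, a transcription factor of the cell cycle, had a change of -0.94 beside -0.28 in normoxia, where it did not pass. In normoxia 25 of the 53 rose and 0 fell, with a median of 0.33. None of the 53 passed the test of the difference.

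Known HIF targets were compared here between cultures that had equal hours of hypoxia, so a change is one between confluent and induced cells at 1% O2. Of 41 found of 45 outside glycolysis, 16 rose and 4 fell with a median of 0.24 that became -0.009 without the median subtraction (9 rising and 10 falling), beside 13 rising and 8 falling in normoxia. A single member fell when Hypoxia D1 replicate 1 was left out. Ndufa4l2, a mitochondrial protein that lowers oxygen use, went from 53.1 and 50.5 to 111 and 141 TPM in hypoxia and stood between 0.972 and 2.12 TPM in all 4 normoxic libraries. Its rise of 1.5 ± 0.23 (adjusted p = 4.58e-05) stood beside 0.21 in normoxia, but the difference of 1.29 did not pass (adjusted p = 0.126). At an adjusted p under 0.05 of any size, the difference between the steps was above 0 for 2 members of this list and below 0 for 1. The 2 above, Adm, which encodes the vasodilator adrenomedullin, and Nedd9, a scaffold of focal adhesions, are described below.

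Several of the best-known HIF targets did not pass the test. Vegfa, the vascular endothelial growth factor, had 77.5 and 84.4 TPM at Hypoxia D0 and 68.5 and 85.4 TPM at Hypoxia D1, a relative change of 0.16 (adjusted p = 0.334). Bnip3, of mitochondrial clearance, had 269 and 245 TPM and then 204 and 256 TPM, a relative change of 0.08 that did not pass, and 14.6 to 18.5 TPM in the normoxic libraries. Hilpda, a lipid droplet protein, had a relative change of -0.27 that did not pass either. Levels of Bnip3 were thus above those of normoxia at both timepoints, and the hypoxic D0 and D1 libraries overlapped.

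Of 15 found glycolysis genes of 26, 4 rose and 1 fell with a median of 0.015, which turned to -0.229 without the median subtraction (3 rising and 5 falling), to -0.014 with a higher pseudocount and to -0.055 without Hypoxia D0 replicate 2. Gapdh went from 852 and 849.8 to 1517 and 1605 TPM in hypoxia and from 313 and 337 to 437 and 486 TPM in normoxia, rises of 1.12 ± 0.12 (adjusted p = 1.17e-06) and 0.70. Bpgm, the bisphosphoglycerate mutase, rose by 1.01 in hypoxia and had a change of -0.11 in normoxia, which did not pass. The kinase gene Pdk3, which holds back pyruvate oxidation, rose by 0.74, and Hk2, the first enzyme of the pathway, had a change of -0.51. The glucose transporter gene Slc2a1 stood at 0.13, the lactate dehydrogenase gene Ldha at -0.09 and Pgk1 below 0.01 in size, and none of the 3 passed.

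The stress genes listed changed in both directions. Of 29 found members of the unfolded protein and amino acid response list, 14 fell and 8 rose with a median of -0.34, beside 10 falling, 5 rising and -0.07 in normoxia, and without the median subtraction 18 fell and 5 rose. The largest falls were in Ppp1r15a, Ddit3, Chac1 and Fgf21. Ppp1r15a, which restarts translation, went from 28.5 and 22.4 to 6.89 and 7.83 TPM, with a change of -1.41 ± 0.15 (adjusted p = 8.54e-07) beside -1.45 in normoxia. Chac1, a glutathione-degrading enzyme, fell from 12.9 and 13.5 to 3.86 and 3.83 TPM, with a change of -1.31 beside -1.33, and Fgf21, a metabolic hormone, had a change of -1.26 beside -0.94. The members that rose included the chaperone genes Hspa5 (BiP) at 0.61 and Hsp90b1 at 0.62, the folding enzyme gene Pdia4 at 0.66 and the transcription factor gene Xbp1 at 0.82, beside 0.30, 0.39, 0.42 and 0.36 in normoxia.

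Matrix genes changed in both directions. Of 44 found of 52, 13 rose and 9 fell with a median of 0.14 that became -0.102 without the median subtraction (9 rising and 14 falling), beside 13 and 8 in normoxia. After Vcan, the largest rises were in Adamts1, a protease that cuts versican, from 1.32 and 1.24 to 8.24 and 8.92 TPM, and Has2, a synthase of hyaluronan, from 1.13 and 0.889 to 5.28 and 6.22 TPM. Their relative rises were 2.31 and 1.99, beside 2.01 and 1.71. Vcan, Adamts1 and Has2 thus rose at both oxygen levels, while Mmp12 fell at both. Of 28 found targets of actin, SRF or YAP signaling, 10 fell and 4 rose with a median of -0.019 that became 0.014 with a filter on low values, 6 fell and 6 rose with a higher pseudocount, and 6 fell without Hypoxia D1 replicate 2. Fhl2, a cytoskeleton-linked cofactor, went from 30.1 and 27.5 to 9.30 and 10.5 TPM, with a change of -1.21 beside -1.12, while Thbs1, the matrix glycoprotein thrombospondin, rose by 1.25 beside 1.06.

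Of 36 found cytokine, chemokine and NF-kB genes, 12 rose and 9 fell with a median of 0.06 that became -0.184 without the median subtraction (10 rising and 15 falling) and -0.251 with a filter on low values (4 rising and 8 falling), beside 7 rising and 10 falling in normoxia. Besides those of Cxcl3 and Il1rl1, the largest changes were in Cxcl1 and Ptges. Cxcl1, another neutrophil chemokine, went from 0.766 and 0.764 to 6.23 and 7.41 TPM. Ptges, a prostaglandin E synthase, went from 1.66 and 1.6 to 6.56 and 7.06 TPM. Cxcl1 rose by 2.39 beside 2.04 and Ptges by 1.81 beside 0.76, with a difference for Ptges that did not pass (adjusted p = 0.0703). In normoxia Ptges went from 0.0688 and 0.115 to 0.683 and 0.543 TPM, all under the pseudocount of 1, which narrows its normoxic change. Of 34 found interferon response genes, 13 fell and 8 rose with a median of 0.026, whose sign turned in 5 alternatives (down to -0.218 without the median subtraction, with 15 falling and 5 rising), and with a higher pseudocount 11 fell and 12 rose, beside 14 falling and 6 rising in normoxia. With Irf1, the proteasome subunit gene Psmb10 led the falls at -1.13, and the ubiquitin ligase gene Herc6 and the protease gene Usp18 led the rises at 1.17 and 1.10.

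Among 13 found clock genes, 3 rose and 4 fell with a median of -0.002, which took the other sign in 4 alternatives, 2 rose and 6 fell without the median subtraction, and 2 fell without Hypoxia D0 replicate 1 or Hypoxia D1 replicate 1. Besides the fall of Dbp, Nfil3, a repressor that acts on Dbp's sites, rose from 21.9 and 22.3 to 48.1 and 45.9 TPM, by 1.30 beside 1.06, and Per1, a clock gene that glucocorticoids and cAMP both induce, from 0.191 and 0.158 to 1.18 and 1.47 TPM, by 1.23 beside 1.31. The repressor gene Bhlhe41 had a change of -0.67 beside -1.23. Dbp, Nfil3 and Per1 thus moved in the same direction at both oxygen levels.

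Markers of other cell types that a preadipocyte culture can hold also moved. Of 5 found of 15 genes of the endothelial list, 4 rose and 0 fell with a median of 1.63, beside 4, 0 and 1.33 in normoxia. Thbd (thrombomodulin) went from 6.03 and 7.48 to 28.6 and 32.0 TPM, a rise of 2.26 ± 0.17 (adjusted p = 7.36e-09), and the adhesion molecule gene Pecam1 from 0.936 and 1.18 to 6.01 and 7.76 TPM, a rise of 2.17 ± 0.11 (adjusted p = 3.91e-11), beside 1.84 and 1.97 in normoxia. S1pr1, the sphingosine-1-phosphate receptor, rose by 1.63 and Procr, the protein C receptor, by 1.16. Of the 6 defining endothelial markers only Pecam1 and Rasip1 were found, both above 0 in every D0 and D1 library. Their summed level went from 1.92 to 2.19 TPM at Hypoxia D0 to 6.49 to 8.46 TPM at Hypoxia D1, and from 1.97 to 2.06 TPM to 5.54 to 5.78 TPM in normoxia. Rasip1 itself had a relative change of -0.09 that did not pass.

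Of 9 found leukocyte genes, 4 rose and 2 fell with a median of 0.034 whose sign turned in 4 alternatives (down to -0.422 with a filter on low values), 3 rose and 4 fell without the median subtraction, and 1 fell without Hypoxia D0 replicate 1 or Hypoxia D1 replicate 2. The tetraspanin gene Cd53 rose by 1.46, the Fc receptor gene Fcer1g by 0.65 and Dock8 by 0.72, while Lcp1 had a change of -0.65. The 3 found of 9 defining leukocyte markers summed to 21.2 to 26.7 TPM at Hypoxia D0 and 15.9 to 20.0 TPM at Hypoxia D1. Of 8 found epithelial and mesothelial genes, 2 rose and 1 fell with a median of 0.27, but 1 rose and 3 fell without the median subtraction and 4 rose and 0 fell with a higher pseudocount. These members included F11r at 1.07, Krt7 at 0.55 and Epcam at -0.45. The 2 found of 8 defining markers summed to 2.51 to 2.73 TPM and then 2.12 to 2.88 TPM. Among 12 found stromal genes, 3 rose and 2 fell with a median of -0.014 whose sign turned in 6 alternatives, 3 rose and 5 fell without the median subtraction, and 0 or 1 fell when any of the 4 hypoxic libraries was left out, 0 without Hypoxia D0 replicate 1. They included the matrix proteoglycan gene Dcn at 1.45, Twist2 at 1.36, Zfp521, a brake on adipogenic commitment, at 0.58 and the collagen receptor gene Ddr2 at -0.41. The part of other cell types in the changes of matrix, chemokine and vascular genes was not tested.

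Most induction changes called in normoxia were also called in hypoxia. Of the 204 mRNAs higher at D1 in normoxia, 147 (72.1%) were called higher in hypoxia, which is 63.1% of the 233 called there. Of the 204, 181 passed the adjusted p in hypoxia, 200 had the same sign, and the median relative change was 1.25 in hypoxia against 1.30 in normoxia. Of the 112 mRNAs lower at D1 in normoxia, 77 (68.8%) were called lower in hypoxia, or 53.5% of the 144 called there. Of the 112, 108 passed the adjusted p in hypoxia, 111 had the same sign, and the median was -1.20 against -1.22. No mRNA was called in both steps with opposite signs. Over the 469 mRNAs called in either step Pearson's r of the relative changes was 0.916, a description across genes, which are not independent replicates.

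Seen from the hypoxic side, 221 of the 233 mRNAs called higher and 139 of the 144 called lower passed the adjusted p in normoxia as well. Their median relative changes were 1.31 in hypoxia against 1.11 in normoxia for the rises and -1.21 against -1.04 for the falls. Since each set was chosen on 1 of the steps, the smaller median in the other step is a description and was not tested.

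The difference between the steps was itself called for 16 of 10318 mRNAs, 14 (0.136%) with a value above 1 and 2 (0.0194%) with a value below -1. Before adjustment, 943 mRNAs had a p under 0.05 from limma. At any size 17 mRNAs (0.165%) had an adjusted p under 0.05 above 0 and 6 (0.0582%) below. Among the 14 above with a larger rise in hypoxia, Star had the largest value, 2.21 ± 0.18 (adjusted p = 1.07e-06). Trim13 followed with 1.85 ± 0.23 (adjusted p = 0.000373). Nedd9 went from 25.2 and 25.6 to 55.3 and 60.0 TPM in hypoxia and from 9.55 and 10.9 to 7.19 and 6.61 TPM in normoxia, a difference of 1.71 ± 0.19 (adjusted p = 0.000106). Nedd9 thus rose in hypoxia, while its normoxic change of -0.31 did not pass. For Aqp1 the difference was 1.39 ± 0.23 (adjusted p = 0.0107), with D0 levels under 1 TPM and close ratios of mean TPM at both oxygen levels.

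In 3 of the 14, a fall seen in normoxia was smaller or did not pass in hypoxia. Plin2, which coats lipid droplets and protects them from lipolysis, went from 407 and 366 to 207 and 219 TPM in hypoxia and from 299 and 337 to 82.8 and 81.2 TPM in normoxia. Its changes were -0.61 and -1.75, with a difference of 1.14 ± 0.15 (adjusted p = 0.000699), so Plin2 fell in both steps and its D1 level was higher in hypoxia. Oga, the enzyme that removes O-GlcNAc from proteins, went from 19.2 and 20.3 to 13.1 and 17.5 TPM in hypoxia and from 14.4 and 22.9 to 5.05 and 4.92 TPM in normoxia. Its hypoxic change of -0.11 did not pass, and the difference was 1.37 ± 0.26 (adjusted p = 0.027). Ciart, a clock repressor, went from 14.4 and 11.6 to 6.65 and 8.46 TPM in hypoxia and from 7.26 and 6.98 to 1.06 and 1.55 TPM in normoxia, a difference of 1.16 ± 0.23 (adjusted p = 0.0333).

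**Figure D4:**
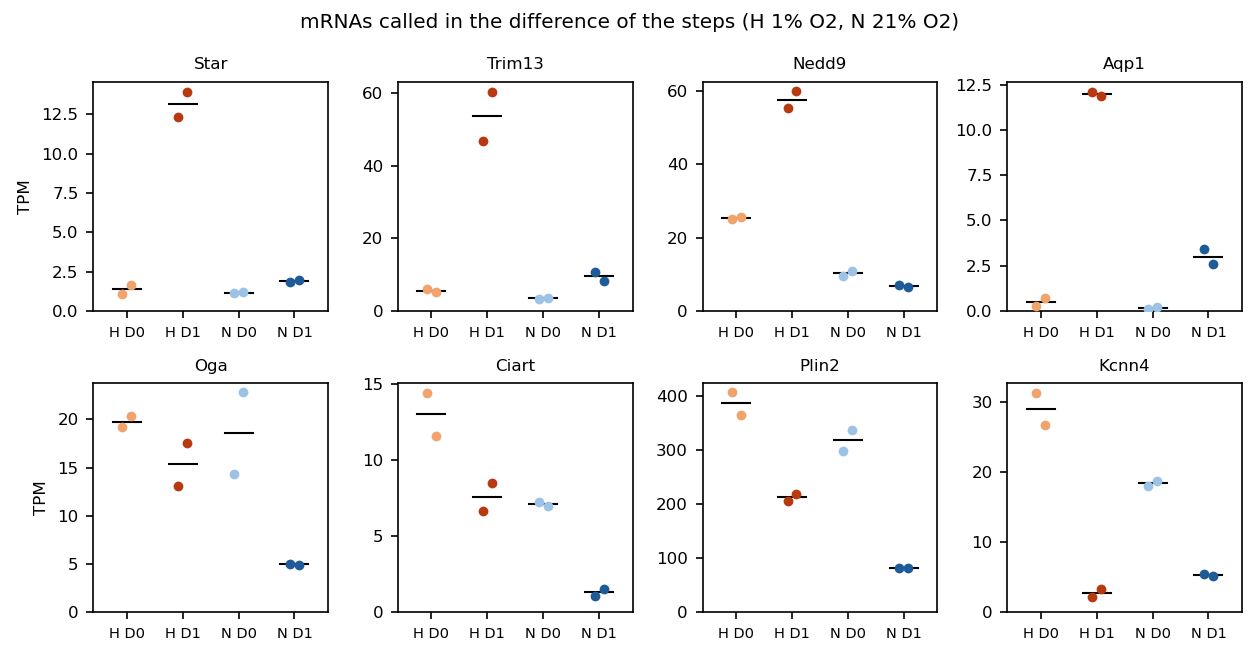
TPM in each library (points) and the group mean (bars) at D0 and D1 in hypoxia (H) and normoxia (N) for 8 mRNAs called in the difference of the steps, each panel on its own axis from 0. In TPM, Star, Trim13, Nedd9 and Aqp1 rise mainly or more in hypoxia, Oga, Ciart and Plin2 fall further in normoxia, and Kcnn4 falls further in hypoxia.

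The other members of the 14, all named here after their values were seen, had differences between 1.01 and 1.12. They were Bpgm at 1.12 (adjusted p = 0.00273), Scd1 at 1.06 (adjusted p = 0.0174), Adm at 1.01 (adjusted p = 0.00273), the bicarbonate transporter gene Slc4a8 at 1.07, the lysophosphatidic acid receptor gene Lpar6 at 1.06, the metalloproteinase gene Mmp19 at 1.01 and a gene with the identifier ENSCGRG00015028892 at 1.09. Adm had 0.997 and 1.13 TPM at Hypoxia D0, 3.58 and 4.10 TPM at Hypoxia D1 and at most 0.281 TPM in normoxia, where its groups did not overlap either. Its mean went from 1.07 to 3.84 TPM in hypoxia and from 0.0532 to 0.269 TPM in normoxia. The ratio of its means was thus not larger in hypoxia, and its difference is one of log2(TPM + 1), where the added 1 narrows changes at such low levels. On the other side, Kcnn4 had a difference of -1.36 ± 0.23 (adjusted p = 0.0107) and ENSCGRG00015007928 one of -1.21 ± 0.25 (adjusted p = 0.0492). The latter stayed between 59.2 and 63.0 TPM in hypoxia and went from 53.6 and 55.1 to 109.8 and 143.9 TPM in normoxia.

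Star, Trim13, Nedd9 and Plin2 kept their call in every alternative that was run for them, and the other 12 lost it in 2 to 10 alternatives. Between 5 and 12 mRNAs were called above when 1 library was left out, with 5 without Normoxia D0 replicate 2, 6 without Hypoxia D0 replicate 1, and 9 without Hypoxia D1 replicate 1, Hypoxia D1 replicate 2 or Normoxia D1 replicate 2. Between 0 and 13 were called below, with 13 without Normoxia D1 replicate 1 and 5 without Hypoxia D1 replicate 2. It was 0 without Hypoxia D1 replicate 1 or Normoxia D0 replicate 2, and 1 without Hypoxia D0 replicate 2, Normoxia D0 replicate 1 or Normoxia D1 replicate 2. The median SE was 0.173 for the difference and 0.123 for a step.

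The lncRNAs are long transcripts without a known protein, listed by gene identifiers of the annotation or by assembly names (G followed by a number). They had lower levels and wider errors, with a median SE of 0.292 for the step on the log2(TPM + 0.1) scale and a replicate r of 0.9625 at Hypoxia D0 and 0.9595 at Hypoxia D1. Of 4295 lncRNAs, 106 (2.47%) were called higher and 161 (3.75%) lower at D1 in hypoxia with an adjusted p under 0.01, beside 69 (1.61%) and 101 (2.35%) in normoxia. Subtracting the median change of the mRNAs in place of that of the lncRNAs turned the split over, to 151 higher and 116 lower in hypoxia and 114 and 66 in normoxia. Leaving out any of the 4 hypoxic libraries left 45 to 56 higher and 60 to 94 lower in hypoxia, the fewest without Hypoxia D0 replicate 1. Of the 69 lncRNAs called higher in normoxia 46 (66.7%) were called higher in hypoxia, 43.4% of the 106 there. Of the 101 called lower, 66 (65.3%) were called lower in hypoxia, 41.0% of the 161. The same sign was seen for 62 of the 69 and 100 of the 101.

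No lncRNA passed the test of the difference between the steps, 0 above (0%) and 0 below (0%), with a smallest adjusted p of 0.161 from limma and 340 lncRNAs at an unadjusted p under 0.05. Since the median SE of this difference was 0.413, changes of moderate size that depend on oxygen were not detectable at this spread.

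Of the 4 leading rises, G5400 had the smallest error, with 0.0853 and 0.0642 TPM at Hypoxia D0, 1.97 and 2.84 TPM at Hypoxia D1, and 0.0168 and 0.0499 and then 0.816 and 0.592 TPM in normoxia. Its relative change was 3.89 ± 0.32 (adjusted p = 9.05e-06), beside 2.6. ENSCGRG00015007556 was listed at 0.288 and 0 TPM and then at 4.46 and 6.13 TPM, a change of 4.83 ± 0.59 (adjusted p = 0.000103), and G8437 at 0.327 and 0 TPM and then at 4.16 and 5.08 TPM, a change of 4.58 ± 0.63 (adjusted p = 0.000289). For all 3, the hypoxic D0 and D1 libraries were apart, as the choice required, and the normoxic change had the same sign.

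Of the leading lncRNAs, G6078 had the largest fitted change, 6.31 ± 1.12 (adjusted p = 0.0016), from 1.43e-09 and 1.22 TPM to 33.8 and 22.2 TPM. In normoxia it was already at 13.3 and 11.6 TPM at D0 and stood at 5.77 and 17.5 TPM at D1. Its size rests on the Hypoxia D0 library where it was close to 0, and the call was lost without 3 of the 4 hypoxic libraries.

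Among the falls, G11809 went from 0.954 and 1.11 TPM to 0.119 and 0 TPM, with a change of -2.86 ± 0.40 (adjusted p = 0.000289) beside -2.56 in normoxia. G10658 went from 7.49 and 3.75 to 0.247 and 0.0761 TPM, with a change of -4.38 ± 0.84 (adjusted p = 0.00266). Its normoxic level was 0.817 and 0.972 TPM at D0 and 0.153 and 0.137 TPM at D1, so the Hypoxia D0 libraries stood above all others. G3651 went from 1.89 and 1.83 to 0.337 and 0 TPM, with a change of -3.16 beside -0.68, which did not pass in normoxia. G4015 was at 0.70 and 1.90 TPM at Hypoxia D0 and was listed at 0 in both Hypoxia D1 libraries, so it is given without a fold change. It was low at D1 in normoxia too, with 0.788 and 2.06 TPM at D0 and 0.168 and 0 TPM at D1.

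**Figure D5:**
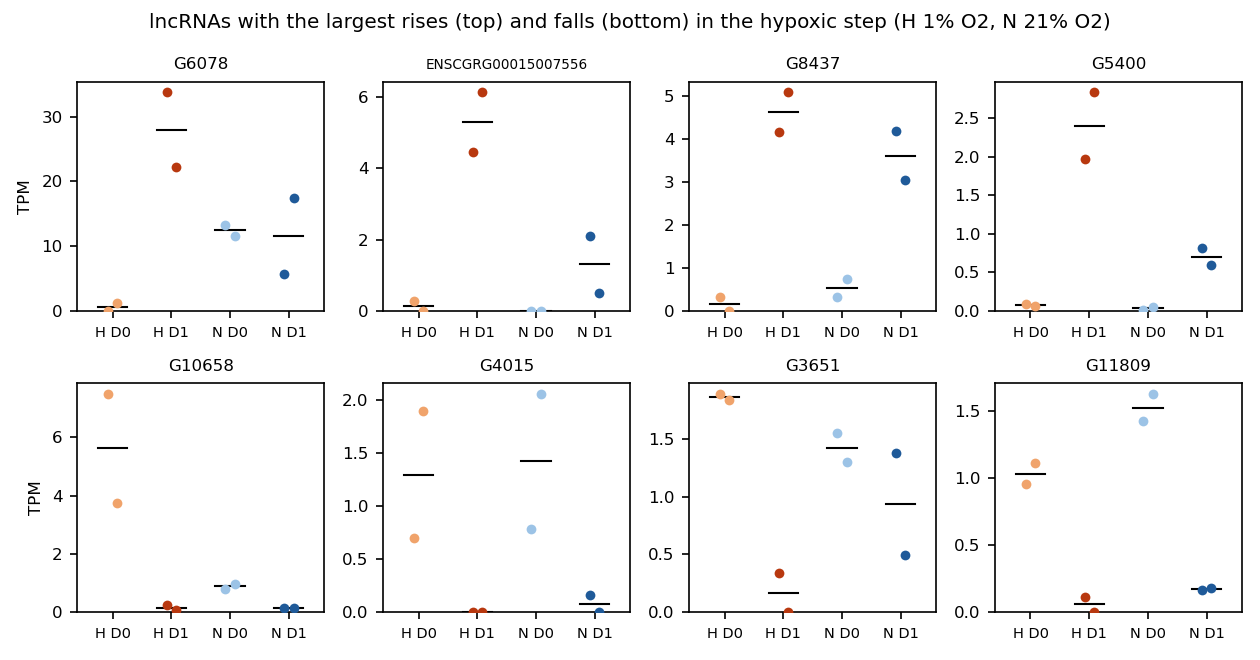
TPM in each library (points) and the group mean (bars) at D0 and D1 in hypoxia (H) and normoxia (N) for the 4 lncRNAs with the largest rise (top) and the 4 with the largest fall (bottom) in the hypoxic step, each panel on its own axis from 0. D0 and D1 are apart in hypoxia in all 8 panels because the choice required it, and G6078 is high in normoxia at both timepoints.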

How the data were processed

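Ribo-Zero libraries of total RNA were read as paired ends. Per the labels and methods, the authors used CASAVA 1.8.2, aligned with STAR 2.6.0c to the CriGri-PICR genome, assembled transcripts and estimated TPM with kallisto 0.44.0. Their deposited tables list 10318 mRNAs above 1 TPM, and 4295 lncRNAs above 0.1 TPM, in both replicates of some group. TPM keeps no read depth, so counting intervals could not be given. The deposited columns of all 20 libraries entered 1 model per table.

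Here, values were taken to log2 with a pseudocount of 1 (mRNAs) or 0.1 (lncRNAs) and fitted with limma 3.58.1 in R 4.3.3 (1 mean a group, residual spread shared over 10 groups, eBayes with trend). The median change of all features was subtracted in each contrast (hypoxic step, normoxic step, their difference) and p-values were adjusted by Benjamini-Hochberg over each table. Calls needed a relative log2 change beyond 1 and an adjusted p under 0.05 (mRNAs) or 0.01 (lncRNAs). The study's own test works on read counts, which the deposited values are not. List members "rose" or "fell" at an adjusted p under 0.05 of any size. The fit was tested on simulated data.

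Symbols came from the study's supplementary tables for 3858 of 10318 mRNAs, so genes without a symbol are in the counts but not in the lists. Those tables include the mRNAs that differed between hypoxia and normoxia at each timepoint, D0 and D1 among them. Lists and named genes were thus drawn partly from mRNAs selected on these same libraries. A symbol was at hand for 147 of the 233 mRNAs called higher and 70 of the 144 called lower in hypoxia. It was at hand for 13 of the 14 above in the difference. The 21 lists hold 660 symbols, 476 of them found. Their members, and the comparisons made, were chosen with earlier results of these data known. Named are the 12 largest rises and falls called with a symbol, at least 10 TPM and no overlap, up to 4 members a list with the largest change that passed, the 6 largest differences called in each direction with at least 10 TPM, the 4 largest lncRNA rises and falls with at least 1 TPM and no overlap, and listed genes a reader would look for. Alternatives were other pseudocounts, a filter on low values, no or other centering, quantile normalization, the 8 libraries of D0 and D1 alone, a replicate block, other lncRNA thresholds and leaving out each library. Some genes that the rule would name are not reported here.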

Additional observations from a re-analysis of the deposited data

Results flagged for a closer look

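For 16 mRNAs the change from D0 to D1 differed between hypoxia and normoxia by the test of the difference itself (limma, Benjamini-Hochberg over 10318 mRNAs). Of these, 14 had a more positive change in hypoxia: Star (2.21), Trim13 (1.85), Nedd9 (1.71), Aqp1 (1.39), Oga (1.37), Ciart (1.16), Plin2 (1.14), Bpgm (1.12), ENSCGRG00015028892 (1.09), Slc4a8 (1.07), Lpar6 (1.06), Scd1 (1.06), Mmp19 (1.01) and Adm (1.01), each value the hypoxic minus the normoxic relative log2 change. The other 2 had a more negative change in hypoxia, ENSCGRG00015007928 (-1.21) and Kcnn4 (-1.36). In all 4 libraries of hypoxia and of normoxia the D0 and D1 values of Star, Trim13 and Aqp1 did not overlap, and both D1 libraries were above both D0 libraries at each oxygen level. Plin2 and Kcnn4 fell at both oxygen levels. For members with levels under 1 TPM, such as Adm, Aqp1 and Slc4a8, the pseudocount of 1 narrows the changes. The differences of Adm and Aqp1 rest largely on it. Library values are given above for some of these genes and not for all, and what sets these differences was not tested.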

How the results depend on the processing

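Over the alternatives, 1893 of 2001 values of named genes kept their direction and their side of the threshold, 108 of 27 genes kept the direction but missed the threshold, and 0 changed sign. The medians of 13 of the 21 lists took the other sign in some alternative, 31 of 357 in all. With a lower pseudocount the hypoxic step called 381 mRNAs higher and 274 lower, the normoxic step 347 and 231, 403 normoxia-called mRNAs were also called in hypoxia and 1 lncRNA was called below in the difference. With a higher one the mRNA counts were 74 and 60 in hypoxia, 71 and 39 in normoxia, 76 shared and 7 above in the difference, and the lncRNA counts 25 and 70, 10 and 40, and 33 shared. With a filter on low values, which tests fewer features, the hypoxic step called 137 mRNAs higher and 95 lower, 8 were below in the difference, and the lncRNA counts were 36 and 86 in hypoxia, 28 and 54 in normoxia and 59 shared. Without the median subtraction 131 and 342 mRNAs were called in hypoxia, 131 and 219 in normoxia and 5 below in the difference. Quantile normalization called 4 mRNAs below. The 8 libraries of D0 and D1 alone called 12 mRNAs below, and 27 and 43 lncRNAs in normoxia, of which 50 were shared with hypoxia. Subtracting the mRNA median called 151 lncRNAs higher and 116 lower in hypoxia, where the lncRNA median gave 106 and 161, and 114 and 66 in normoxia, and an adjusted p under 0.05 gave 158 and 233 in hypoxia and 131 and 177 in normoxia. The cause of these shifts was not tested.

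Leaving out 1 library gave 5 to 12 mRNAs above and 0 to 13 below in the difference, 45 to 99 lncRNAs higher and 60 to 159 lower in hypoxia, 20 to 75 and 19 to 97 in normoxia, and 36 to 78 lncRNAs shared (36 without Normoxia D1 replicate 2). Hypoxic mRNA counts stayed at 225 to 248 and 130 to 170.

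The sources do not say that equal replicate numbers mark shared cultures, and the deviations of same-numbered libraries of Hypoxia D0 and Hypoxia D1 correlated at -0.173 over mRNAs and -0.044 over lncRNAs. Over mRNAs, Hypoxia D0 correlated at 0.153 with Normoxia D0 and at 0.246 with Normoxia D1, Hypoxia D1 at 0.059 and -0.125, and Normoxia D0 with Normoxia D1 at -0.083. With the replicate block, 234 mRNAs were called higher and 144 lower in hypoxia and 16 above and 1 below in the difference. With the crossed pairing, added after seeing the data, they were 234, 144, 14 and 1. No read depth is known, so limits from counting could not be set.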
